A study of Mus musculus with 12 samples.

Results

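The mitochondrial genome of the mouse encodes 13 proteins of the respiratory chain and ATP synthase, the 2 ribosomal RNAs of the mitochondrial ribosome and 22 transfer RNAs. These 37 genes were taken from the count table by their symbols, which all start with mt-, out of 40406 entries left after exact repeats were removed. Each gene belongs to 1 of 3 classes, protein-coding, rRNA or tRNA, which are described apart. RNA was sequenced from 4T1 cells, a mammary carcinoma line from BALB/c mice labelled as triple-negative. The groups were integrin β3 knockout cells given 10 nM docetaxel (KO-DTX), the same cells given the solvent DMSO (KO-DMSO), integrin β3 wild-type cells given 10 nM docetaxel (WT-DTX) and wild-type cells given DMSO (WT-DMSO). Exposure lasted 24 h and was followed by 48 h without drug in all 4 groups. Each group had 3 libraries, which the labels call biological replicates, and a library held between 28.7 and 40.8 M counts (mega-counts). The labels do not say how the knockout was made or whether it is 1 clone.

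Both mitochondrial strands are transcribed by a single-subunit RNA polymerase into long RNAs that span many genes. These are cut mostly at the tRNAs, which lie between the mRNAs and rRNAs, and the free RNAs then reach different levels through processing and decay. Docetaxel stabilises microtubules. A share of counts is relative to all RNA that was sequenced, so fewer mitochondria per cell and less RNA per mitochondrion cannot be told apart.

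2 facts limit the groups. Itgb3, which encodes integrin β3, was counted at 59.3, 64.6 and 63.4 CPM in KO-DTX and 62.4, 66.7 and 64.96 CPM in KO-DMSO, against 80.6, 88.7 and 80.0 CPM in WT-DTX and 71.4, 60.1 and 66.1 CPM in WT-DMSO. CPM are counts scaled to a mega-count of library size. KO-DTX was lower than WT-DTX by 0.41 ± 0.08 on the log2 scale (log2 change -0.41, adjusted p = 0.00765, edgeR quasi-likelihood test), while the 2 DMSO groups overlapped. For that reason the cells are called knockout-labelled here, and a deletion that leaves the transcript would not show in these counts. WT-DMSO library 1 is wild type by title and genotype label, which are followed here, but its free-text description says knockout. The epithelial markers Epcam, Krt8, Krt18 and Cdh1 had medians of 416 to 719 CPM, while the basal keratins Krt14 and Krt5 had medians of 52.0 and 0.0304 CPM, with Krt5 at 0 in 5 libraries. Of the receptors that the triple-negative label concerns, Pgr was at or near 0 and Esr1 and Erbb2 had medians of 28.8 and 99.98 CPM. Summed markers reached at most 4.62 CPM for leukocytes, 0.711 CPM for endothelium and 29.7 CPM for fibroblasts, the last almost wholly Pdgfra, with Lum at 0 in all 12 libraries.

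The layout of the genome bears on what the counts can tell. Coordinates are those of GENCODE M21 on GRCm38; the sources used here do not name the build behind the counts. Neighbouring genes abut or overlap, and the longest overlap joins mt-Atp8 and mt-Atp6, whose reading frames share 43 bases of the same strand (chrM:7927-7969). That stretch is shown because a read from it belongs to both genes, with the first codon of mt-Atp6 in capitals.
shared end of mt-Atp8 and start of mt-Atp6: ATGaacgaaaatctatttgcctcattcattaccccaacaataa
mt-Nd4l and mt-Nd4 share 7 bases, and mt-Nd5 and mt-Nd6 share 14 bases on opposite strands. mt-Nd6 is the only protein-coding gene on the minus strand. The sources used here do not say whether the counting used strand, so reads from mt-Nd6 and from RNA antisense to it may not have been told apart. Of the 13 reading frames, 9 open with atg and 4 with another codon, gtg in mt-Nd1, ata in mt-Nd2, att in mt-Nd3 and atc in mt-Nd5. In mt-Co3, mt-Nd4 and mt-Cytb the annotated gene ends in a lone t, an incomplete stop codon that is completed in mouse mitochondria when the RNA is polyadenylated. GC content of the 13 genes lay between 31.9% and 41.1%.

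Nuclear copies of mitochondrial sequence were the second limit. On chromosome 1, 7 annotated pseudogenes lie on the minus strand within chr1:24611535-24616197 and follow the mitochondrial order from mt-Co1 to mt-Nd4. 5 of these, Gm28661, Gm10925, Gm28437, Gm10222 and Gm28439, match mt-Co2, mt-Atp6, mt-Co3, mt-Nd4l and mt-Nd4 without a single mismatch over the aligned stretch. The opening 40 bases of mt-Atp6 (chrM:7927-7966) and of Gm10925 (chr1:24614612-24614651, minus strand) show what a read would have to be told apart by, with the first codon in capitals.
mt-Atp6: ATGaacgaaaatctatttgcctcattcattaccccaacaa
Gm10925: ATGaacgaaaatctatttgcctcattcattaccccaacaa
The other 2 copies each differ at 1 base, in capitals below. Counted from the first base of the mitochondrial gene, with its base given first, the differences are T3C between mt-Nd3 and Gm28438 (chrM:9459-9476 and chr1:24613102-24613119, minus strand) and A1066T between mt-Co1 and Gm29216 (chrM:6390-6408 and chr1:24616170-24616188, minus strand).
mt-Nd3: atTaacctgtacactgtt
Gm28438: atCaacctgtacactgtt
mt-Co1: ggaAttgttttatccaact
Gm29216: ggaTttgttttatccaact
A read that misses those bases fits both places equally well. The chromosome 1 copies span at least 99% of mt-Co2, mt-Atp6, mt-Co3, mt-Nd3 and mt-Nd4l and a part of mt-Co1 and mt-Nd4. The other 6 protein-coding genes have no annotated copy there, though 1 of them, mt-Atp8, lies between copied genes. On other chromosomes, mt-Nd2, mt-Nd5, mt-Nd6 and mt-Cytb have annotated copies that are 92.4% to 96.7% identical over the aligned stretch.

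The 13 protein-coding genes together took between 0.358% and 1.14% of all counts in a library. Their share was 1.14%, 0.521% and 0.753% in KO-DTX libraries 1 to 3 and 0.540%, 0.518% and 0.587% in KO-DMSO. It was 0.947%, 0.528% and 0.655% in WT-DTX and 0.494%, 0.671% and 0.358% in WT-DMSO. KO-DTX library 1 was the highest of all and WT-DMSO library 3 the lowest, and the libraries of every pair of compared groups overlapped. Group means were 0.804% ± 0.312 in KO-DTX and 0.548% ± 0.0354 in KO-DMSO, a ratio of 1.47, and 0.710% ± 0.215 in WT-DTX and 0.508% ± 0.157 in WT-DMSO, a ratio of 1.398 (SD, n = 3 each). The ratio of knockout-labelled to wild type was 1.13 after docetaxel and 1.08 under DMSO. Counting error was far below this spread: the widest exact 95% binomial interval reached 0.00331 percentage points to each side. Such intervals cover counting error only. Shares are summed over the members and carry no test.

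**Figure D1:**
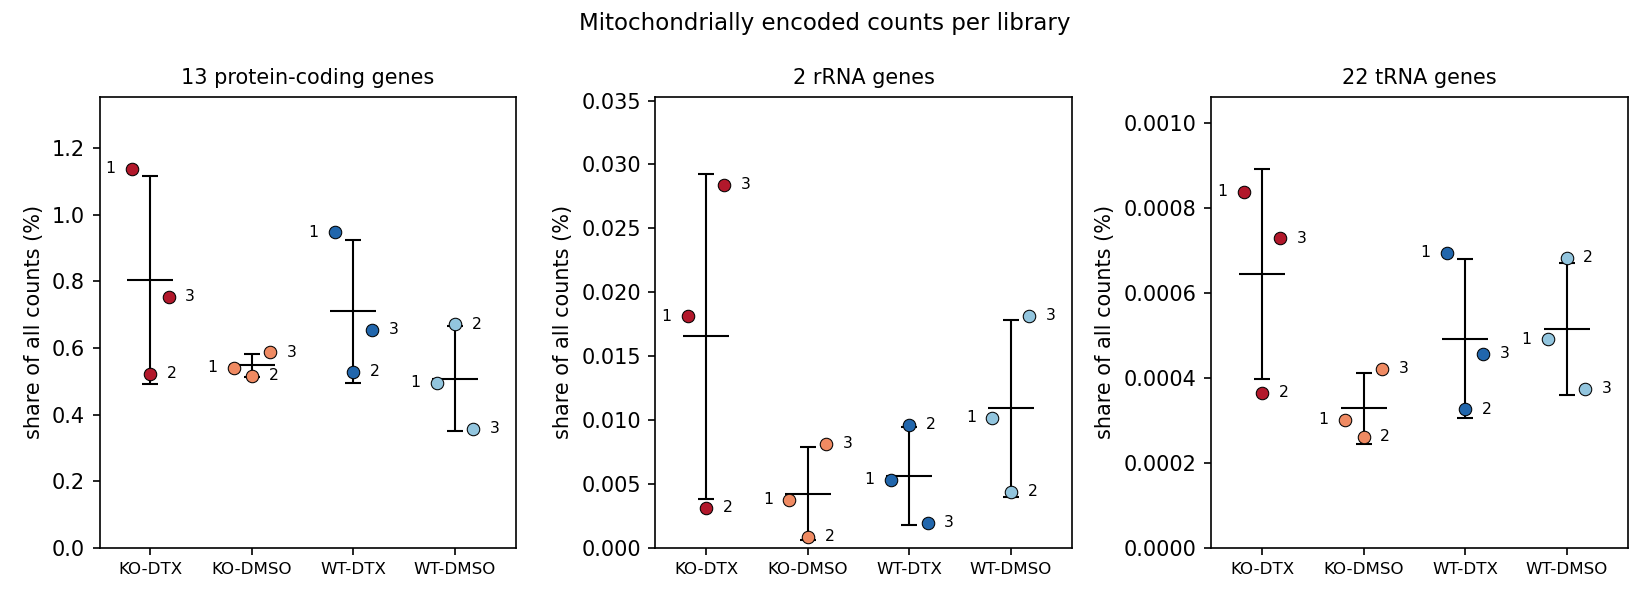
Share of all counts taken by the 3 classes in each library (percent, linear axes from 0, a different scale per class); points are libraries with their replicate number, bars the group mean ± SD (n = 3). KO-DTX spans 0.521% to 1.14% in the protein-coding class and overlaps every other group.

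Within each of the 4 groups, the libraries ranked by protein-coding share stood in exactly the inverse order of their share of Gm26917, annotated as a long noncoding RNA on chromosome 17, which alone took 7.07% to 11.9% of counts. The order was the same when Gm26917 and Gm23935, an abundant feature annotated as a microRNA on chromosome 16, were left out of the total. In KO-DTX, libraries 1, 2 and 3 had 7.37%, 11.9% and 9.48% of counts in Gm26917, and in WT-DMSO 7.57%, 7.07% and 11.5%. Gm26917 itself did not separate the groups (log2 change 0.03 ± 0.23 for KO-DTX against KO-DMSO, adjusted p = 0.947, edgeR quasi-likelihood test). Its part in the mitochondrial shares was not tested.

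The rRNA genes mt-Rnr1 and mt-Rnr2, which encode the 12S and 16S RNAs of the mitochondrial ribosome, took far fewer counts than the mRNAs. Ribosomal RNA had been removed with RNase H before the libraries were made, per the labels' protocols, so that a library's level and the completeness of removal cannot be told apart for this class. The share was 0.0181%, 0.00315% and 0.0284% in KO-DTX and 0.00378%, 0.000847% and 0.00814% in KO-DMSO. It was 0.00535%, 0.00962% and 0.00194% in WT-DTX and 0.0102%, 0.00439% and 0.0181% in WT-DMSO. KO-DTX library 2 lay among the KO-DMSO libraries, and the compared groups again overlapped. Means were 0.0166% ± 0.0127 in KO-DTX, 0.00425% ± 0.00367 in KO-DMSO, 0.00564% ± 0.00385 in WT-DTX and 0.0109% ± 0.00690 in WT-DMSO. The SD was between 63.3% and 86.2% of the mean in every group, far more than for the protein-coding class.

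The 22 tRNA genes together held 1992 counts in the 12 libraries. Their share was 0.000644% ± 0.000247 in KO-DTX and 0.000328% ± 8.34e-05 in KO-DMSO, and 0.000492% ± 0.000187 in WT-DTX and 0.000516% ± 0.000156 in WT-DMSO. mt-Tp, the tRNA for proline, held 1827 of these counts, or 91.7%, and was the only tRNA gene to pass the filter on low counts. It was counted in all 12 libraries, with 75 to 294 counts each. mt-Tn for asparagine had 51 counts, mt-Tc for cysteine 47 and mt-Tl1, a tRNA for leucine, 18. Another 14 genes had 1 to 10 counts in all. mt-Tv, mt-Td, mt-Tg and mt-Th were at 0 in every library, which allows up to 3 counts, or 0.00751 CPM over all libraries. Of these, mt-Td and mt-Tg lie between genes copied on chromosome 1, while mt-Tv and mt-Th do not. Whether the low tRNA counts come from a library of fragmented RNA or from the counting of reads that fit several places was not tested. No level of a tRNA pool is read from these counts.

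By the strand of the gene the tRNA counts were uneven. The 8 tRNA genes on the minus strand held 120 counts besides mt-Tp, and the 14 on the plus strand 45. Most of the 120 were those of mt-Tn and mt-Tc, at 51 and 47. Whether the counting used strand is not known, so these counts need not come from minus-strand RNA. The strand of a gene and its place among its neighbours cannot be told apart here. The sequences of the 3 tRNA genes with the most counts, all on the minus strand, are shown with the anticodon in capitals (mt-Tp chrM:15356-15422, mt-Tn chrM:5089-5159, mt-Tc chrM:5192-5257).
mt-Tp: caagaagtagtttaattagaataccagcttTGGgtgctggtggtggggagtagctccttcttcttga
mt-Tn: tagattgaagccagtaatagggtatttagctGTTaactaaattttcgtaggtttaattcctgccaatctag
mt-Tc: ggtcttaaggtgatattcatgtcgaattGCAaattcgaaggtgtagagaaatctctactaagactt
All 3 are shorter than the 150 bases of a sequenced read, so a read can hold them whole only together with flanking sequence or adapter.

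Levels of the protein-coding genes were compared per kilobase of gene (CPM per kb, mean over the 12 libraries ± SD). Complex I, which passes electrons from NADH to ubiquinone, spanned the whole range, with mt-Nd1 at 1757 ± 576, mt-Nd2 at 658 ± 253, mt-Nd5 at 267 ± 84.0, mt-Nd4 at 213 ± 72.0, mt-Nd6 at 205 ± 49.2, mt-Nd3 at 47.3 ± 16.05 and mt-Nd4l at 27.2 ± 8.47 CPM per kb. mt-Cytb, the only mitochondrially encoded subunit of complex III, stood at 1048 ± 270.5 CPM per kb. Complex IV, cytochrome c oxidase, had its catalytic subunit mt-Co1 at 1068 ± 282 but mt-Co2 at 56.4 ± 12.1 and mt-Co3 at 63.8 ± 19.3 CPM per kb. In ATP synthase, mt-Atp6, which forms part of its proton channel, stood at 189 ± 56.5 and mt-Atp8 at 66.9 ± 26.3 CPM per kb. Not all neighbours in this order kept it within each library. mt-Co1 was above mt-Cytb in 9 of 12 libraries, all but the 3 of KO-DMSO. mt-Nd4 was above mt-Nd6 in 5 of 12, mt-Nd6 above mt-Atp6 in 8, mt-Atp8 above mt-Co3 in 7, mt-Co3 above mt-Co2 in 7 and mt-Co2 above mt-Nd3 in 10. The other neighbours stood in the order of their means in 12 of 12 libraries. mt-Co1, mt-Nd1 and mt-Cytb together held 69.2% to 72.7% of the protein-coding counts in every library. For comparison, mt-Rnr1 stood at 55.6 ± 47.8 and mt-Rnr2 at 25.6 ± 24.4 CPM per kb after depletion.

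By their means, genes copied over nearly their whole length stood lower than most of the others. The 5 genes copied over at least 99% of their length, mt-Atp6, mt-Co3, mt-Co2, mt-Nd3 and mt-Nd4l, had a median level of 56.4 CPM per kb and a range of 27.2 to 189. Of the 6 without an annotated copy there, mt-Atp8, which lies between copied genes, stood at 66.9 CPM per kb and thus within the range of the copied genes. The other 5, mt-Nd1, mt-Cytb, mt-Nd2, mt-Nd5 and mt-Nd6, lie outside the copied stretch. Their means had a median of 658 and a range of 205 to 1757, above those of the 5 genes copied over at least 99%. By library, mt-Nd6 was above mt-Atp6 in 8 of 12. The partly copied mt-Co1 and mt-Nd4, at 1068 and 213 CPM per kb, also stood above mt-Nd6. The sources used here do not say how reads that fit several places were counted, so the level of a copied gene and that of its copy cannot be told apart.

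**Figure D2:**
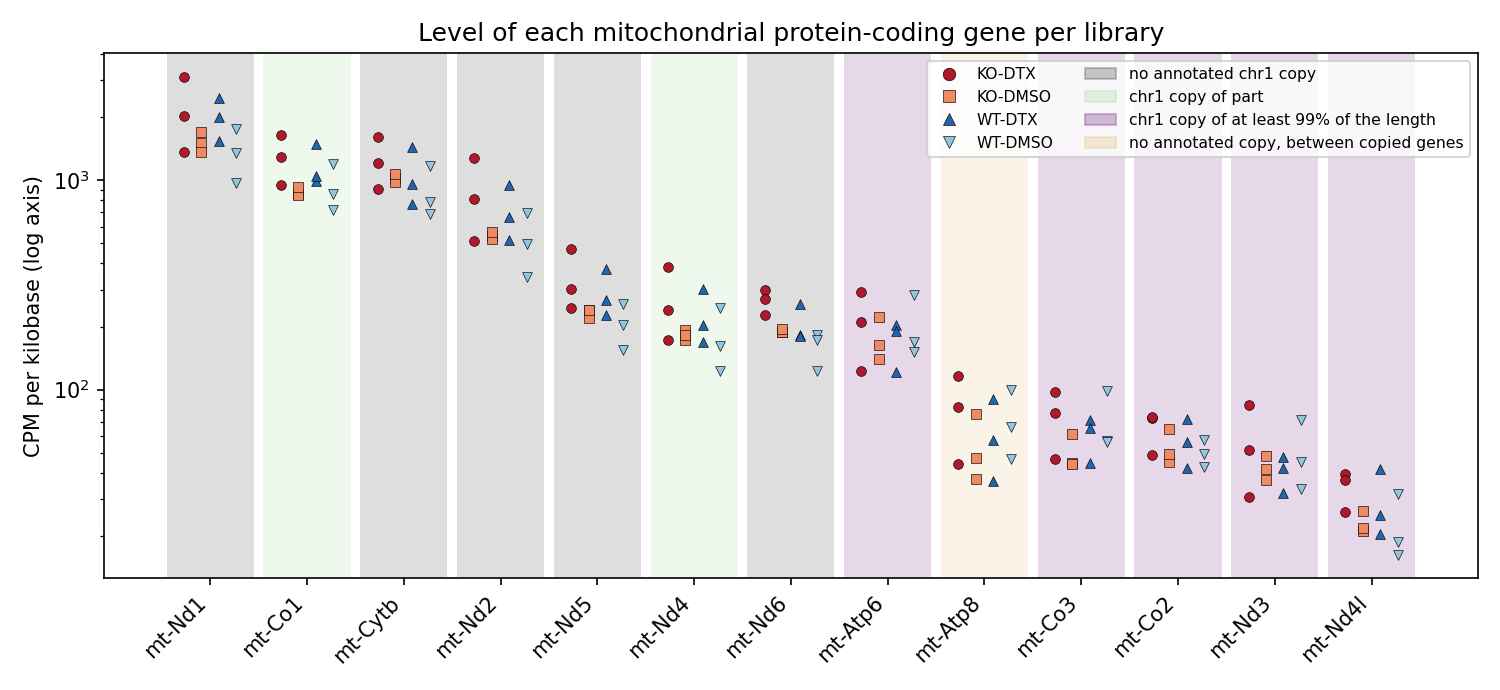
Level of the 13 protein-coding genes in each library (CPM per kilobase, log axis), ordered by their mean; each point is a library, colour and shape give the group and the shading the kind of chromosome 1 copy. The 5 genes copied over at least 99% of their length lie at the low end, from 189 for mt-Atp6 to 27.2 for mt-Nd4l, with mt-Atp8 among them.

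The copies took about as many counts as the genes they match. The ratio of copy to mitochondrial counts had a median over the 12 libraries of 1.12 for Gm28661 to mt-Co2, 1.53 for Gm10925 to mt-Atp6, 1.02 for Gm28437 to mt-Co3, 1.25 for Gm28438 to mt-Nd3 and 0.713 for Gm10222 to mt-Nd4l. Gm10925 was above mt-Atp6 in 12 of 12 libraries, with 4541 to 13413 counts against 2922 to 8769. In contrast, Gm29216 reached a median of 0.0171 of mt-Co1 and Gm28439 of 0.0373 of mt-Nd4, where part of the mitochondrial gene has no copy on chromosome 1. Among the copies, Gm10925 averaged 198 CPM, Gm28437 51.4, Gm28661 43.3, Gm29216 27.5, Gm28438 19.5, Gm28439 10.9 and Gm10222 5.73 CPM over the 12 libraries. On chromosome 2, Gm13340, which is 97.6% identical to mt-Co1, averaged 32.3 CPM and Gm13341, 95.9% identical to mt-Co2, averaged 11.3 CPM. None of these 9 copies was called in any of the 5 comparisons by edgeR.

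**Figure D3:**
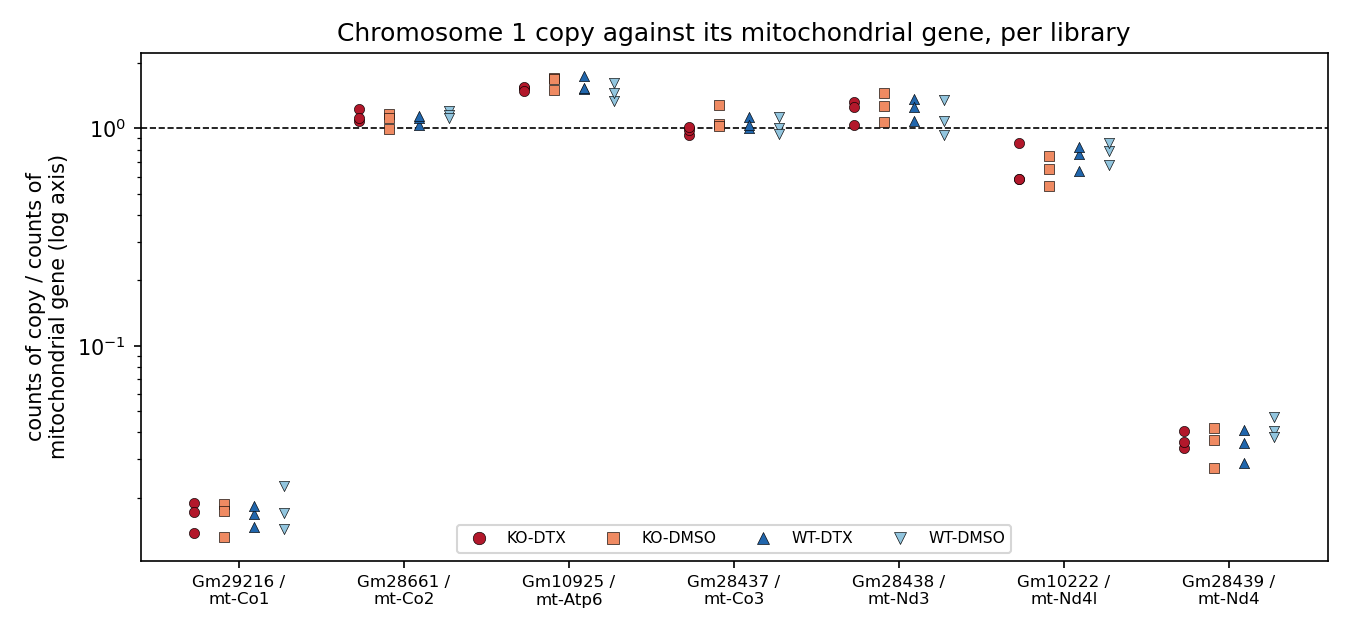
Counts of each chromosome 1 copy divided by the counts of its mitochondrial gene, per library (ratio, log axis; dashed line at equal counts); points are libraries, colour and shape the group. Gm10925 lies above mt-Atp6 in 12 of 12 libraries, and Gm29216 and Gm28439 lie far below mt-Co1 and mt-Nd4.

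With docetaxel in knockout-labelled cells, 1 of the 13 protein-coding genes passed the test. mt-Nd6, a membrane subunit of complex I, had 156, 117 and 141 CPM in KO-DTX, against 97.6, 97.5 and 101 CPM in KO-DMSO. Every KO-DTX library was above every KO-DMSO library, and mt-Nd6 rose by 0.49 ± 0.16 on the log2 scale (adjusted p = 0.0488, edgeR quasi-likelihood test adjusted over 15538 genes). Among all tested genes 16.1% were called in this comparison, and 9.09% of all tested genes were called higher, so that 1 of 13 is near the background. The call rests on single libraries: without 1 of KO-DTX 1, KO-DTX 3, KO-DMSO 1, KO-DMSO 2, KO-DMSO 3, WT-DTX 2 or WT-DTX 3 the adjusted p was 0.168, 0.123, 0.122, 0.140, 0.114, 0.0539 and 0.0557 in this order, and it was 0.0501 by limma-voom and 0.0729 with upper-quartile scaling.

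The other 12 protein-coding genes had positive values in knockout-labelled cells that did not pass the test. The median over the 13 was 0.55 on the log2 scale (range 0.25 to 0.68), against 0.00 over all tested genes. mt-Co1 had 2547, 1470.1 and 1994 CPM in KO-DTX, against 1330.0, 1310.1 and 1424 CPM in KO-DMSO. Its libraries did not overlap, and its log2 change was 0.56 ± 0.21 (adjusted p = 0.0807). mt-Nd5, a proton-pumping subunit of complex I, had 860, 449 and 551 CPM in KO-DTX, against 437, 399.9 and 437 CPM in KO-DMSO. Its libraries were also apart, and its log2 change was 0.55 ± 0.23 (adjusted p = 0.126). In all, 3 of 13 genes had libraries apart and higher, where 19.2% of all tested genes did. mt-Nd1 averaged 2072 ± 840 CPM in KO-DTX and 1454 ± 155 CPM in KO-DMSO, and mt-Cytb 1415 ± 395 and 1170.1 ± 55.2 CPM. The spread in KO-DTX was set by library 1, the highest in 12 of the 13 genes, and library 2, the lowest in all 13. Without KO-DTX library 2, 6 of the 13 were called, namely mt-Nd1, mt-Nd2, mt-Nd5, mt-Nd6, mt-Co1 and mt-Co3, with mt-Rnr1 and mt-Tp beside them, and 17.2% of all tested genes were called in that fit (9.88% higher). Without WT-DMSO library 2 mt-Co1 joined mt-Nd6, where 18.1% of all were called.

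In wild-type cells, docetaxel gave 0 calls among the 13 protein-coding genes by edgeR, by DESeq2 and by limma-voom, with 3 genes at an unadjusted p under 0.05 and 28.4% of all tested genes called. Log2 changes were positive in 9 genes and negative in 4, with a median of 0.35 and a range of -0.30 to 0.56, against 0.02 over all tested genes. mt-Nd6 had 133, 94.2 and 93.3 CPM in WT-DTX, against 94.9, 89.2 and 64.1 CPM in WT-DMSO. These libraries overlapped, with a log2 change of 0.37 ± 0.16 (adjusted p = 0.0965). mt-Nd1 averaged 1909 ± 441 CPM in WT-DTX and 1295 ± 373 CPM in WT-DMSO, a log2 change of 0.56 ± 0.26 (adjusted p = 0.125). The 4 genes with negative values were mt-Atp8, mt-Atp6, mt-Co3 and mt-Nd3, at -0.21, -0.22, -0.22 and -0.30. Of these, 3 are copied over at least 99% of their length on chromosome 1 and mt-Atp8 lies between copied genes, but the other genes copied to that extent, mt-Co2 and mt-Nd4l, had positive values of 0.19 and 0.38. With a correction for GC content mt-Nd1, mt-Co1, mt-Nd5 and mt-Nd6 were called in wild-type cells, with adjusted p of 0.0174, 0.0481, 0.0112 and 0.0110, and 34.3% of all tested genes were (17.9% higher).

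**Figure D4:**
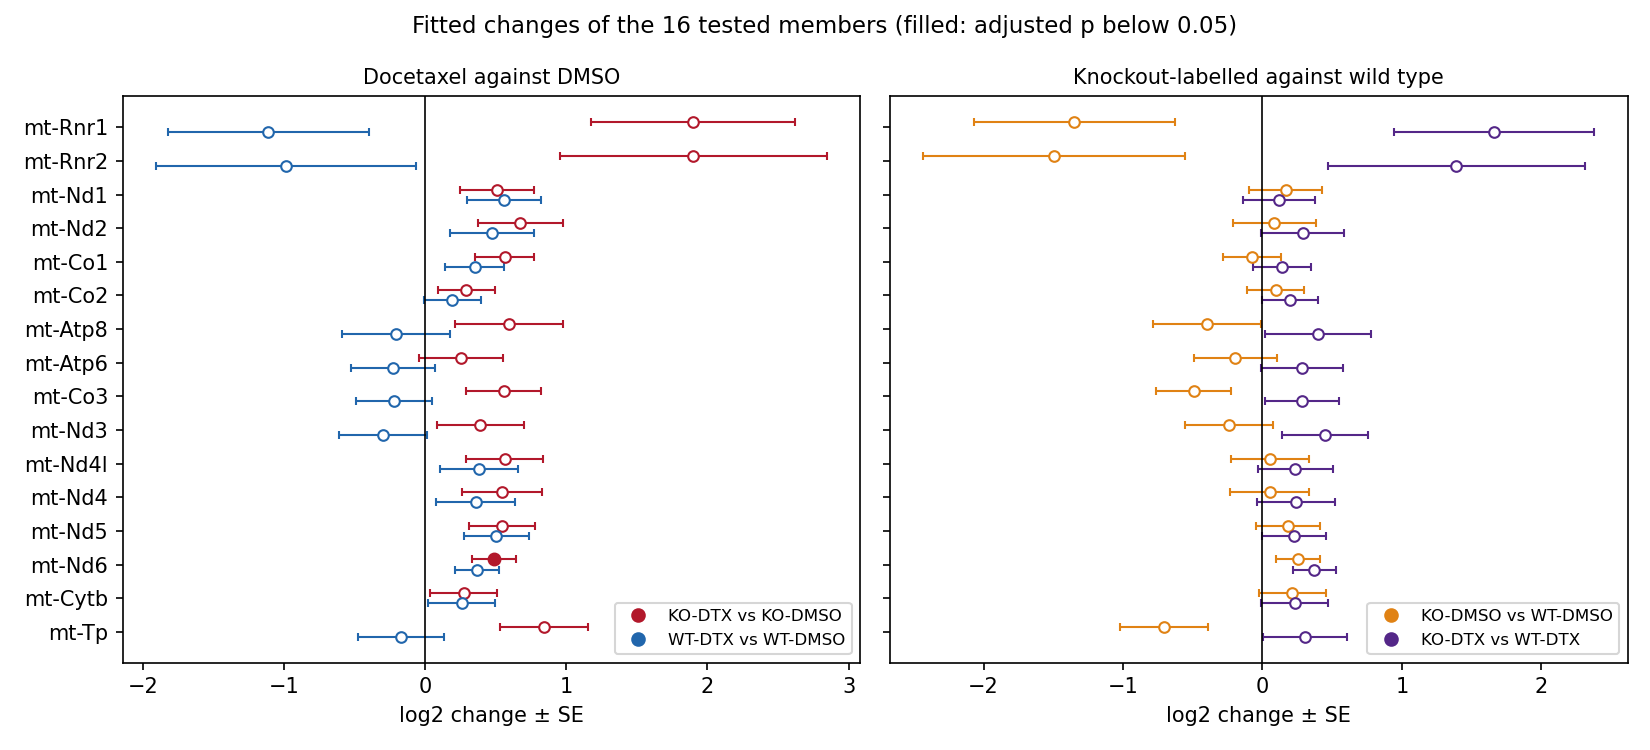
Fitted log2 changes ± SE of the 16 members that passed the filter, for docetaxel against DMSO in each genotype (left) and for knockout-labelled against wild type in each treatment (right); filled points have an adjusted p below 0.05. mt-Nd6 in KO-DTX against KO-DMSO is the filled point, at 0.49, and the rRNA genes show the widest errors.

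The rRNA genes had large values of opposite sign in the 2 genotypes, with errors to match. mt-Rnr1 had 102, 18.9 and 161 CPM in KO-DTX, against 20.7, 6.74 and 47.8 CPM in KO-DMSO, a log2 change of 1.90 ± 0.73 (adjusted p = 0.0913). It had 30.7, 46.2 and 12.0 CPM in WT-DTX, against 65.9, 31.3 and 95.0 CPM in WT-DMSO, a log2 change of -1.11 ± 0.71 (adjusted p = 0.266). The libraries overlapped in both genotypes, with KO-DTX library 2 as low as the KO-DMSO libraries. mt-Rnr2 had 67.1, 13.4 and 122 CPM in KO-DTX, against 17.7, 1.79 and 34.4 CPM in KO-DMSO (log2 change 1.90 ± 0.94, adjusted p = 0.193). It had 19.0, 50.9 and 7.08 CPM in WT-DTX, against 35.9, 13.4 and 103 CPM in WT-DMSO (log2 change -0.98 ± 0.92, adjusted p = 0.460). The difference between the genotypes in the docetaxel change was 3.01 ± 1.02 for mt-Rnr1 and 2.88 ± 1.32 for mt-Rnr2 and was not called (adjusted p = 0.339 and 0.446), in a comparison where 0.109% of all tested genes were.

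Gm23935 had docetaxel changes of the same sign as those of the rRNAs in both genotypes. It took 0.856%, 0.293% and 1.51% of counts in KO-DTX, against 0.152%, 0.137% and 0.177% in KO-DMSO, and 0.220%, 0.217% and 0.192% in WT-DTX, against 1.62%, 3.98% and 0.435% in WT-DMSO. It rose by 2.46 ± 0.60 in KO-DTX and fell by 3.33 ± 0.63 in WT-DTX on the log2 scale (adjusted p = 0.0135 and 0.00171, edgeR). By share of counts, the libraries stood in the same order by mt-Rnr1 and by Gm23935 in 2 groups, KO-DTX and KO-DMSO. In WT-DTX library 3 was lowest by both but the other libraries changed places, and in WT-DMSO the order was reversed. By CPM the order was the same in 3 groups, WT-DTX among them, and reversed in WT-DMSO. The part of Gm23935 in the rRNA values was not tested.

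mt-Tp, the tRNA gene that could be tested, had 6.71, 3.31 and 6.51 CPM in KO-DTX, against 2.78, 2.44 and 4.00 CPM in KO-DMSO. The libraries overlapped through KO-DTX library 2, and the log2 change of 0.84 ± 0.31 did not pass (adjusted p = 0.0823 by edgeR, 0.0353 by DESeq2). It had 6.07, 3.03 and 4.29 CPM in WT-DTX, against 4.59, 6.57 and 3.92 CPM in WT-DMSO, a log2 change of -0.17 ± 0.31 (adjusted p = 0.718).

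Between the genotypes no member was called. Under DMSO, knockout-labelled against wild type, the 13 protein-coding genes had a median log2 change of 0.05 (8 positive, 5 negative, range -0.49 to 0.25), with 0 called by edgeR, DESeq2 and limma-voom, none at an unadjusted p under 0.05, and 15.8% of all tested genes called. mt-Nd6 was the only member with libraries apart, at 97.6, 97.5 and 101 CPM in KO-DMSO, against 94.9, 89.2 and 64.1 CPM in WT-DMSO (log2 change 0.25 ± 0.16, adjusted p = 0.308), where 15.7% of all tested genes had libraries apart and higher. With the GC correction it was called (adjusted p = 0.0184), as were 20.2% of all tested genes. mt-Rnr1, mt-Rnr2 and mt-Tp had values of -1.35 ± 0.72, -1.49 ± 0.94 and -0.70 ± 0.32 (adjusted p = 0.229, 0.315 and 0.151).

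After docetaxel, knockout-labelled against wild type, all 13 protein-coding genes had positive values with a median of 0.24 (range 0.12 to 0.45), 0 called by the 3 tools, 1 at an unadjusted p under 0.05 and 5.89% of all tested genes called. That gene was mt-Nd6, at 0.37 ± 0.16 (adjusted p = 0.216). mt-Rnr1 had a value of 1.66 ± 0.72 (adjusted p = 0.230). The test of the difference between the 2 docetaxel changes, knockout-labelled minus wild type, called 0 members by the 3 tools. The median over the 13 genes was 0.19, with 12 positive, and the largest values were 0.80 ± 0.54 for mt-Atp8, 0.78 ± 0.38 for mt-Co3 and 0.69 ± 0.44 for mt-Nd3. These comparisons share groups, so their values are not independent.

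Ratios between features of the same library leave out the total of its counts, and 7 were formed. They carry no test and were chosen once values had been seen. How often ratios of other genes stand apart between these groups was not counted. Copied and uncopied refer here to the chromosome 1 copies alone. Ratios with a copied gene can still hold reads of its nuclear copy. The summed counts of the 5 copied genes over those of the 5 uncopied genes outside the copied stretch came to 5.15%, 5.01% and 5.84% in KO-DTX, 4.88%, 5.82% and 6.78% in KO-DMSO, 4.72%, 4.84% and 5.66% in WT-DTX and 6.40%, 8.01% and 8.49% in WT-DMSO. The wild-type groups did not overlap, at 5.07% ± 0.511 in WT-DTX and 7.63% ± 1.09 in WT-DMSO, while the knockout-labelled groups did, at 5.34% ± 0.445 in KO-DTX and 5.83% ± 0.945 in KO-DMSO. mt-Atp6 over mt-Nd1 stood at 6.12% ± 0.597 in WT-DTX and 10.6% ± 2.32 in WT-DMSO with no overlap, and at 6.85% ± 0.496 in KO-DTX and 8.19% ± 1.404 in KO-DMSO, which overlapped. The chromosome 1 copies moved with the genes they match: their sum over the copied genes was 129% ± 1.61 in KO-DTX, 139% ± 9.43 in KO-DMSO, 134% ± 7.65 in WT-DTX and 128% ± 8.06 in WT-DMSO, and the compared groups overlapped.

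mt-Tp over mt-Cytb, its neighbour but for 1 tRNA gene on the circle and read from the other strand, did not overlap between the wild-type groups. It was 0.369%, 0.346% and 0.392% in WT-DTX, all below the 0.510%, 0.490% and 0.4998% in WT-DMSO. KO-DTX had 0.368%, 0.318% and 0.472% and KO-DMSO 0.238%, 0.219% and 0.326%, which overlapped. KO-DMSO lay below WT-DMSO without overlap, at 0.261% ± 0.0570 against 0.4999% ± 0.00997. These ratios rest on 75 to 294 counts of mt-Tp a library, so counting error alone can exceed the small SD in WT-DMSO. The ratios of mt-Nd6 to the 4 other uncopied genes, of rRNA to protein-coding counts, and of mt-Rnr1 to mt-Rnr2 overlapped between all compared groups; the last averaged 142% ± 9.74 in KO-DTX and 211% ± 144 in KO-DMSO.

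**Figure D5:**
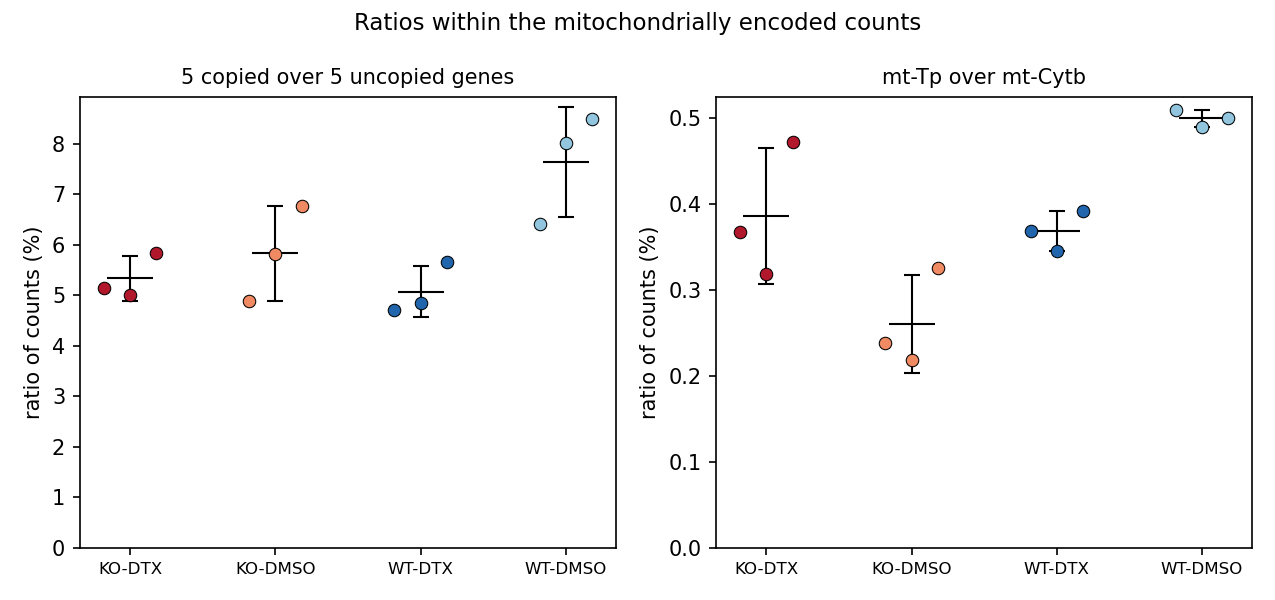
Ratio of counts (percent, linear axes from 0) of the 5 copied over the 5 uncopied protein-coding genes (left) and of mt-Tp over mt-Cytb (right) in each library; points are libraries, bars the group mean ± SD (n = 3). WT-DTX lies below WT-DMSO in both panels, and KO-DMSO below WT-DMSO without overlap in the right panel. Copied and uncopied refer to the chromosome 1 copies alone, and both ratios were chosen once values had been seen.

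Expression of the mitochondrial genome depends on nuclear genes for its polymerase and transcription factors, replication, RNA processing, tRNA charging, ribosome and translation factors. Of 190 such genes in 7 lists, 188 could be tested. In wild-type cells docetaxel raised 30 and lowered 18 (of all tested genes 14.5% were called higher and 13.8% lower), and in knockout-labelled cells it raised 12 and lowered 5 (9.09% and 7.00% of all). Knockout-labelled cells under DMSO had 24 higher and 7 lower than wild type (6.60% and 9.20% of all). After docetaxel 0 were called by edgeR, 5 by DESeq2 and 0 by limma-voom, with 23 at an unadjusted p under 0.05. For the difference between the docetaxel changes the counts were 0, 1 and 0, with 14 at an unadjusted p under 0.05. Median log2 changes were 0.09 for docetaxel in wild-type cells, 0.01 in knockout-labelled cells and 0.15 for the genotypes under DMSO.

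The 2 lists of mitochondrial ribosomal proteins were the longest, with 80 tested genes in all. With docetaxel 22 of these were called in wild-type cells and 6 in knockout-labelled cells, or 27.5% and 7.5%, where 28.4% and 16.1% of all tested genes were, and 15 were called between the genotypes under DMSO, or 18.8%, where 15.8% were. Of 49 tested large-subunit proteins, 14 rose and 3 fell with docetaxel in wild-type cells and 4 rose and 1 fell in knockout-labelled cells, and 11 were higher and 0 lower in KO-DMSO than in WT-DMSO. Mrpl20 averaged 36.95 ± 1.35 CPM in WT-DTX and 22.3 ± 3.20 CPM in WT-DMSO (log2 change 0.73 ± 0.11, adjusted p = 0.000428, edgeR), and 38.9 ± 1.98 CPM in KO-DTX and 30.4 ± 3.45 CPM in KO-DMSO (0.36 ± 0.11, adjusted p = 0.0403). Mrpl46 rose by 0.77 and Mrpl16 by 0.69 in WT-DTX, and Mrpl23 fell by 0.53 in KO-DTX. Of 31 small-subunit proteins, 4 rose and 1 fell with docetaxel in wild-type cells, 0 rose and 1 fell in knockout-labelled cells, and 2 were higher and 2 lower in KO-DMSO than in WT-DMSO. Mrps11 averaged 8.21 ± 0.918 CPM in WT-DTX and 4.17 ± 0.525 CPM in WT-DMSO (0.98 ± 0.15, adjusted p = 0.000397).

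In the list of RNA processing, modification and decay (39 tested), 4 rose and 2 fell with docetaxel in wild-type cells. In knockout-labelled cells 5 rose and 1 fell, and 2 were higher and 1 lower in KO-DMSO than in WT-DMSO. Of all tested genes, 14.5% rose and 13.8% fell in wild-type cells, and 9.09% and 7.00% did in knockout-labelled cells. Between the DMSO groups 6.60% were higher and 9.20% lower. Pde12, which removes poly(A) tails from mitochondrial mRNAs, averaged 36.0 ± 2.71 CPM in KO-DTX and 25.8 ± 2.18 CPM in KO-DMSO (0.48 ± 0.10, adjusted p = 0.00492), and 32.7 ± 2.84 CPM in WT-DTX and 19.2 ± 1.18 CPM in WT-DMSO (0.77 ± 0.10, adjusted p = 0.000151). Its libraries did not overlap in either genotype. Pnpt1, the polynucleotide phosphorylase of the mitochondrial RNA degradosome, rose by 0.60 in KO-DTX, and Rexo2, an oligoribonuclease, by 0.72 in WT-DTX. Trmt10c, a subunit of mitochondrial RNase P, which cuts tRNAs free at the 5′ end, rose by 0.41 in WT-DTX.

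For the remaining lists the shares of all tested genes were the same. With docetaxel 14.5% rose and 13.8% fell in wild-type cells, and 9.09% and 7.00% did in knockout-labelled cells. Under DMSO 6.60% were higher and 9.20% lower in knockout-labelled cells. Among the 17 tested genes of transcription, 2 rose and 2 fell with docetaxel in wild-type cells. In knockout-labelled cells 0 were called, with 2 at an unadjusted p under 0.05, and 1 was higher in KO-DMSO than in WT-DMSO. Pprc1, a coactivator of the PGC-1 family, averaged 122 ± 11.8 CPM in WT-DTX and 76.2 ± 12.996 CPM in WT-DMSO (0.67 ± 0.12, adjusted p = 0.00114), and was higher in KO-DMSO than in WT-DMSO by 0.47. Tfb1m, which methylates the 12S rRNA, fell by 0.60 in WT-DTX. Of the 17 genes of DNA replication and maintenance, 2 rose and 4 fell in wild-type cells, among them Primpol, a primase-polymerase, which fell by 0.64. In knockout-labelled cells 0 were called, with 3 at an unadjusted p under 0.05, and 1 was higher and 2 lower in KO-DMSO than in WT-DMSO. Of the 22 synthetase genes, 3 rose and 3 fell in wild-type cells, 2 rose and 2 fell in knockout-labelled cells, and 5 were higher and 1 lower in KO-DMSO than in WT-DMSO. Qrsl1, a subunit of the enzyme that makes glutaminyl-tRNA, rose by 0.62 in KO-DTX and by 0.72 in WT-DTX, and Mars2, the methionyl-tRNA synthetase, by 0.61 and 0.58. Of the 13 translation factors, 1 rose and 3 fell in wild-type cells and 1 rose in knockout-labelled cells, and 2 were higher and 1 lower in KO-DMSO than in WT-DMSO. Gfm1, elongation factor G1, rose by 0.40 in KO-DTX and by 0.61 in WT-DTX, and Oxa1l, which inserts mitochondrial translation products into the inner membrane, fell by 0.54 in WT-DTX.

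A list of 8 genes that sense mitochondrial nucleic acids or let them out had 3 higher and 0 lower with docetaxel in knockout-labelled cells. It had 2 higher and 2 lower in wild-type cells, and 0 higher and 3 lower in KO-DMSO than in WT-DMSO. Of all tested genes, 9.09% were called higher and 7.00% lower in the first comparison. In the second these shares were 14.5% and 13.8%, and in the third 6.60% and 9.20%. Ifih1, the RNA sensor MDA5, averaged 110 ± 1.55 CPM in KO-DTX and 51.3 ± 8.06 CPM in KO-DMSO (1.10 ± 0.11, adjusted p = 1.55e-05), and 129 ± 5.51 CPM in WT-DTX and 92.3 ± 10.2 CPM in WT-DMSO (0.48 ± 0.11, adjusted p = 0.00556). Bak1, which opens the outer membrane, rose by 0.46 in KO-DTX and by 0.61 in WT-DTX.

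The counts of called nuclear genes over the 7 lists hung on single libraries. For docetaxel in knockout-labelled cells the count of 17 became 7 without KO-DTX 1, 8 without KO-DTX 3, 5 without KO-DMSO 2 and 8 without KO-DMSO 3. The share of all tested genes called moved too, from 16.1% to 10.2%, 9.41%, 8.21% and 9.15% in this order. In wild-type cells the count of 48 became 31 without WT-DTX 1 and 29 without WT-DTX 3, and the share of all went from 28.4% to 19.2% in both fits. For the genotypes under DMSO the count of 31 became 7, 16 and 14 without KO-DMSO 1, 2 and 3. Without WT-DMSO 1, 2 and 3 it became 48, 18 and 18. Here the share of all went from 15.8% to 7.9%, 10.7% and 9.83%, and to 20.5%, 9.93% and 11.9%. After docetaxel the count of 0 became 4 without WT-DMSO 1 or 2, 2 without WT-DMSO 3 and 1 without WT-DTX 1 or KO-DTX 2. These 5 fits called 6.66%, 6.8%, 6.11%, 3.85% and 4.46% of all tested genes, against 5.89%.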

How the data were processed

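The authors deposited 1 table of raw read counts per gene symbol for 12 libraries, with 1 column each. Per the labels' protocols, RNA was bound to RNeasy columns, ribosomal RNA was removed with RNase H, and cDNA was primed with random hexamers. STAR 2.5.1a, featureCounts 1.4.6-p5 (Subread) and bcl2fastq are named in the submitters' processing notes. The sources used here give no genome build, no strand setting and no rule for reads that fit several places. A loss or split of reads at near-identical copies would lower the affected genes.

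Of 40757 entries, 351 repeated another in symbol and every count (0.907% of counts) and were removed. Depth was 28.7 to 40.8 M counts. Genes kept by filterByExpr (15538, among them 16 members) were scaled by TMM and tested with edgeR 4.0.16 in R 4.3.3, in 1 quasi-likelihood model of 4 group means. Each two-sided contrast was adjusted by the Benjamini-Hochberg method over all tested genes and called at 0.05. The standard error is the log2 change divided by the root of its F statistic. CPM are TMM-scaled, and errors are SD over 3 libraries. Where a triplicate shares its starting culture, p-values measure that smaller spread. Sequences and lengths come from GENCODE M21 transcripts, and nuclear copies are annotated pseudogenes with at least 90% identity over 100 bases (blastn 2.17.0). All 37 members are accounted for, with tRNA genes by name where they had calls or many counts. Of each nuclear list, up to 3 called genes per contrast could be named, by size of change among those averaging 5 CPM or more. The tRNA genes mt-Tn, mt-Tc and mt-Tl1, those at 0, and all ratios were chosen once values had been seen. The members and lists were chosen with earlier results of these data known.

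The tests were checked on simulated counts with known changes. For docetaxel in knockout-labelled cells 65 or 66 genes were changed per size, a far smaller part than the 16.1% called in the data. Recovery is an average over genes of all spreads, so it does not give the power for a single member. For docetaxel in knockout-labelled cells 30.8%, 74.2% and 90.9% of log2 changes of 0.5, 1 and 2 were recovered over 15220 genes. In wild-type cells 24.6%, 68.8% and 93.7% were recovered over 15238 genes. For the difference between the docetaxel changes, 3.03%, 60.6% and 75.8% were recovered over 15231 genes. False calls made up 5.15% of calls for docetaxel in knockout-labelled cells and 3.25% in wild-type cells. They made up 7.25% and 3.57% for the genotypes under DMSO and after docetaxel, and 4.17% for the difference. Alternatives were DESeq2 1.42.0, limma-voom 3.58.1, other scalings and filters, a GC correction, the replicate block, and the omission of libraries. Counts of the nuclear copies added to their mitochondrial genes before the test was chosen after seeing the data. Figures used matplotlib 3.10.9 in Python 3.11.15.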

Additional observations from a re-analysis of the deposited data

Results flagged for a closer look

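Of the genes reported, Gm23935, the feature whose docetaxel changes had the same sign as those of the rRNA genes in both genotypes, had a docetaxel change that differed between the genotypes in the test of the difference itself. The change in knockout-labelled cells minus that in wild-type cells was 5.79 ± 0.87 on the log2 scale (adjusted p = 0.0220, edgeR quasi-likelihood test), and no mitochondrially encoded gene passed this test.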

How the results depend on the processing

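Of 2064 single-member values under the alternatives, 1995 kept their call, 11 lost it and 58 gained it; 0 called values turned sign, and 87 uncalled values did. Without the filter on low counts the prior degrees of freedom of the fit went to infinity over 28365 genes, against 6.07 over 15538. Of all genes in that fit, 10.8% were called for docetaxel in knockout-labelled cells and 16.2% in wild-type cells. For the genotypes under DMSO and after docetaxel the shares were 10.4% and 4.18%, and for the difference between the docetaxel changes 1.48%. Protein-coding members called were then 10 for docetaxel in knockout-labelled cells, 6 in wild-type cells, 1 and 2 for the genotypes under DMSO and after docetaxel, and 3 for the difference between the docetaxel changes, and rRNA and tRNA members 4, 2, 3, 2 and 3 in the same order. For docetaxel in knockout-labelled cells the protein-coding count of 1 became 2 with DESeq2 and with GC correction, 3 with only the 2 groups of the contrast, and 0 with limma-voom, with upper-quartile scaling and with the nuclear copies added, and DESeq2 called 1 of the rRNA and tRNA genes. In that comparison DESeq2, GC correction and the 2 groups alone called 20.4%, 19.8% and 18.7% of all tested genes. The settings with a count of 0 called 16.7%, 16.8% and 16.1% in the order given. With GC correction the counts were 4 in wild-type cells and 1 for the genotypes under DMSO, where 34.3% and 20.2% of all were called. The cause was not tested.

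Replicate numbers were shared between groups. Deviations of same-numbered libraries correlated above 0.1 in 4 of 18 pairs, with a range of -0.272 to 0.346. Between WT-DTX and KO-DTX the correlations were 0.346, 0.218 and 0.0252 for libraries 1, 2 and 3. In both docetaxel groups, but in neither DMSO group, the protein-coding share was highest in library 1 and lowest in library 2. The main model holds no replicate term, and whether same-numbered libraries share a batch was not tested. With the replicate block, 1 nuclear gene of mitochondrial gene expression was called between the genotypes after docetaxel, against 0. That fit called 6.07% of all tested genes in this comparison. For the difference between the docetaxel changes it called 48 of all tested genes, against 17. mt-Nd6 kept its call (adjusted p = 0.0299, edgeR quasi-likelihood test), where 17.4% of all were called for docetaxel in knockout-labelled cells. With the block and GC correction together, docetaxel gave 3 called protein-coding members in knockout-labelled cells and 3 in wild-type cells. For the genotypes under DMSO 1 was called. Nuclear genes of mitochondrial gene expression called were 27 and 75 for docetaxel in knockout-labelled and wild-type cells. For the genotypes after docetaxel 5 were called. All tested genes called were 1471 for the genotypes after docetaxel and 107 for the difference. Of all tested genes, that fit called 21.4% for docetaxel in knockout-labelled cells and 35.2% in wild-type cells. For the genotypes it called 21.1% under DMSO and 9.47% after docetaxel.

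The nuclear genes called between the genotypes after docetaxel (0) became 5 with DESeq2 and with GC correction. They became 2 with upper-quartile scaling and with at least 1 CPM in 3 libraries, and 1 without the filter. In the order given, these fits called 8.69%, 8.5%, 6.1%, 7.4% and 4.18% of all tested genes, against 5.89% in the main fit. Those for the difference (0) became 1 with DESeq2 and 2 without the filter, and all tested genes (17) 165, 8, 421 and 38 with DESeq2, limma-voom, no filter and GC correction. With only the 2 groups of the contrast, 15 nuclear genes were called for the genotypes under DMSO, where 11.8% of all tested genes were. Without WT-DMSO replicate 2 and KO-DTX replicate 3 together, this count was 7 and that for docetaxel in knockout-labelled cells 11. Of all tested genes, 7.98% and 11% were called in these 2 comparisons. All tested genes called between the genotypes were 1267 under DMSO and 565 after docetaxel. With each library left out in turn, protein-coding members called ran from 0 to 6 and rRNA and tRNA members from 0 to 2 for docetaxel in knockout-labelled cells, and were 0 in the other comparisons. Nuclear genes ran from 5 to 24 there, 29 to 63 in wild-type cells, 7 to 48 for the genotypes under DMSO, and 0 to 4 for the other 2 comparisons. All tested genes ran from 1311 to 2881, 3035 to 4824, 1264 to 3273, 467 to 1083 and 2 to 431.

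The KO-DMSO protein-coding share became 0.604% without Gm26917 and Gm23935 in the total, 0.640% with protein-coding genes only in the total and 0.585% with the copies added. With a library left out, protein-coding shares ran from 0.637% to 0.946% in KO-DTX, 0.529% to 0.563% in KO-DMSO, 0.591% to 0.801% in WT-DTX and 0.426% to 0.583% in WT-DMSO, rRNA shares from 0.0106% to 0.0233%, 0.00231% to 0.00596%, 0.00364% to 0.00748% and 0.00729% to 0.0142%, and tRNA shares from 0.000547% to 0.000783%, 0.000282% to 0.000362%, 0.000391% to 0.000576% and 0.000433% to 0.000587%. Of the tRNA class, only mt-Tp had enough counts to be tested.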
